A study of Mus musculus with 8 samples.

Results

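The solute carrier genes measured here are 136 of the 11789 genes in a table of gene expression in whole mouse pancreas. They were chosen by name and level: gene names made of Slc and a family number, with a mean normalized read count of at least 10 over all 8 libraries. The mitochondrial family Slc25, the zinc families Slc30 and Slc39, and the glucose transporter gene Slc2a2 were left out. The name rule also took 4 genes that do not encode carriers, the scaffold genes Slc9a3r1 and Slc9a3r2 and the genes Slc4a1ap and Slc7a6os, which leaves 132 carriers. Slc22a18 and Slc38a6 lay just inside the minimum, with means of 10.5 each, and Slc2a13 and Slc11a1 just outside it, with means of 9.60 and 9.08. A further 15 names of these families, among them the glucose transporter genes Slc2a3 and Slc2a4, had lower means, down to 3.94.

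The series compares 4 mice of the genotype Daxxfl/flPdx1-CreTg, called DC, with 4 wild-type mice, called WT. All were 6 weeks old, and per the series' design text each genotype held 2 females and 2 males, but no label gives the sex of a library. The Pdx1 promoter drives Cre in the epithelial progenitors of the pancreas, so vessels, stroma, immune cells and fat keep their floxed alleles. The labels name no group with the transgene alone or the floxed alleles alone, so effects of these and of the loss of Daxx, a histone chaperone, cannot be told apart.

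Solute carriers are membrane proteins that move nutrients, ions, vitamins and metabolites across the plasma membrane and the membranes of organelles. Acinar cells, which make most of the pancreas, draw large amounts of amino acids from the blood for the synthesis of digestive enzymes, and carriers in their Golgi and endoplasmic reticulum supply the substrates of glycosylation. Duct cells secrete bicarbonate through exchangers and cotransporters of the Slc4 and Slc26 families. Several amino acid carriers are known targets of the transcription factor ATF4, which binds the amino acid response element when amino acids run short.

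Promoters of Slc7a11 and Slc1a4, carriers known as ATF4 targets, are shown because this element can be read in them. Of the 9 carriers listed here as ATF4 targets only these had a match, the others having no match or no window. The motif TGATGNAA was searched on both strands in windows reaching from 250 bases before to 50 bases after each start in RefSeq promoters of GRCm38.p6, which held windows for 102 of the 136 genes. A match was present for 5 of these 102 genes (4.90%), against 1219 of 27025 genes in the whole table (4.51%). Of the 22 amino acid carrier genes with a window 3 had a match, Slc7a11, Slc1a4 and Slc7a7. In Slc7a11 (chr3:50443564-50443863, minus strand) there was 1 match on each strand, the first starting 66 bases and the second 47 bases before the start of the gene. In Slc1a4 (chr11:20332664-20332963, minus strand) a match on the opposite strand lay across the start, beginning 4 bases before it. Capitals mark the matches, and each sequence runs 5′ to 3′ on the strand of its gene.
Slc7a11: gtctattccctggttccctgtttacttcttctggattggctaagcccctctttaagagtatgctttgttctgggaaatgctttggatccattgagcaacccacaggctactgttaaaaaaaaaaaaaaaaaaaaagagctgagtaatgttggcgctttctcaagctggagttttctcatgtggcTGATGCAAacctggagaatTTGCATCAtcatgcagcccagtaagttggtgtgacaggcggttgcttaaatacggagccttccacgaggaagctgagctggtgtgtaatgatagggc
Slc1a4: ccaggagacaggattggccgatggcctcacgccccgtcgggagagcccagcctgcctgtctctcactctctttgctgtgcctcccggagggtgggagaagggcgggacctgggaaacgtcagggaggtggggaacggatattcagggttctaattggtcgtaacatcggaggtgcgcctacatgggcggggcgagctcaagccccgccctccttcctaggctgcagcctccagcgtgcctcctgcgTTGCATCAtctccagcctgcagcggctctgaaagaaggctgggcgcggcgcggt

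The 8 libraries held 7705789 to 10517508 reads, and solute carrier genes took 0.259% to 0.304% of them. Daxx itself had 26.8, 23.3, 29.2 and 32.5 normalized counts in DC replicates 1 to 4, against 39.7, 58.7, 46.7 and 45.2 in WT replicates 1 to 4. The 7 acinar markers summed to 2004380 to 2892920 normalized counts in DC libraries and 2484270 to 2734990 in WT libraries, so the tissue carried its defining transcripts in every library. Islet markers differed several-fold between animals of 1 genotype, with summed levels of 1642 to 7433 in DC and 2079 to 7679 in WT. Of their 8 genes 1 lay above 0 and 7 below in log2 fold change, where 51.9% of all tested genes lay below. Above and below 0 lay 1 and 6 acinar, 3 and 4 ductal, 2 and 3 endothelial, and 4 and 2 stromal markers. For adipocyte markers these numbers were 1 and 3, for erythroid 3 and 1, and for immune 3 and 0. The 8 ductal markers summed to 1115 to 1325 in DC and 1116 to 1319 in WT. Of these Sctr, the secretin receptor gene, was the only marker gene in any list with an unadjusted limma p under 0.05, with 15.5, 23.3, 34.4 and 29.4 normalized counts in DC libraries, against 5.29, 7.83, 9.74 and 5.31 in WT libraries. Endothelial, stromal, adipocyte, erythroid and immune markers had none, where 2.88% of all tested genes had such a p. The part of these markers in the results was not tested. In bulk tissue fewer cells of a type and less RNA per cell cannot be told apart.

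Amino acid carriers dominated the set. The 31 genes of the amino acid families took 51.2% of the normalized counts of all 136 genes, and 7 of the 10 genes with the highest level per kilobase of exon belonged to them. The level of a gene is given here as normalized count per kilobase of its annotated exons, so that genes of different length can be compared. The length is that of all annotated exons of the gene together, which can exceed that of the expressed transcript. Levels spanned 424-fold, between 517 per kilobase for Slc38a5 and 1.22 per kilobase for Slc7a14, with a median over the 136 genes of 12.3. By normalized count 54 genes reached a mean of 100, and 7 reached 1000.

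**Figure D1:**
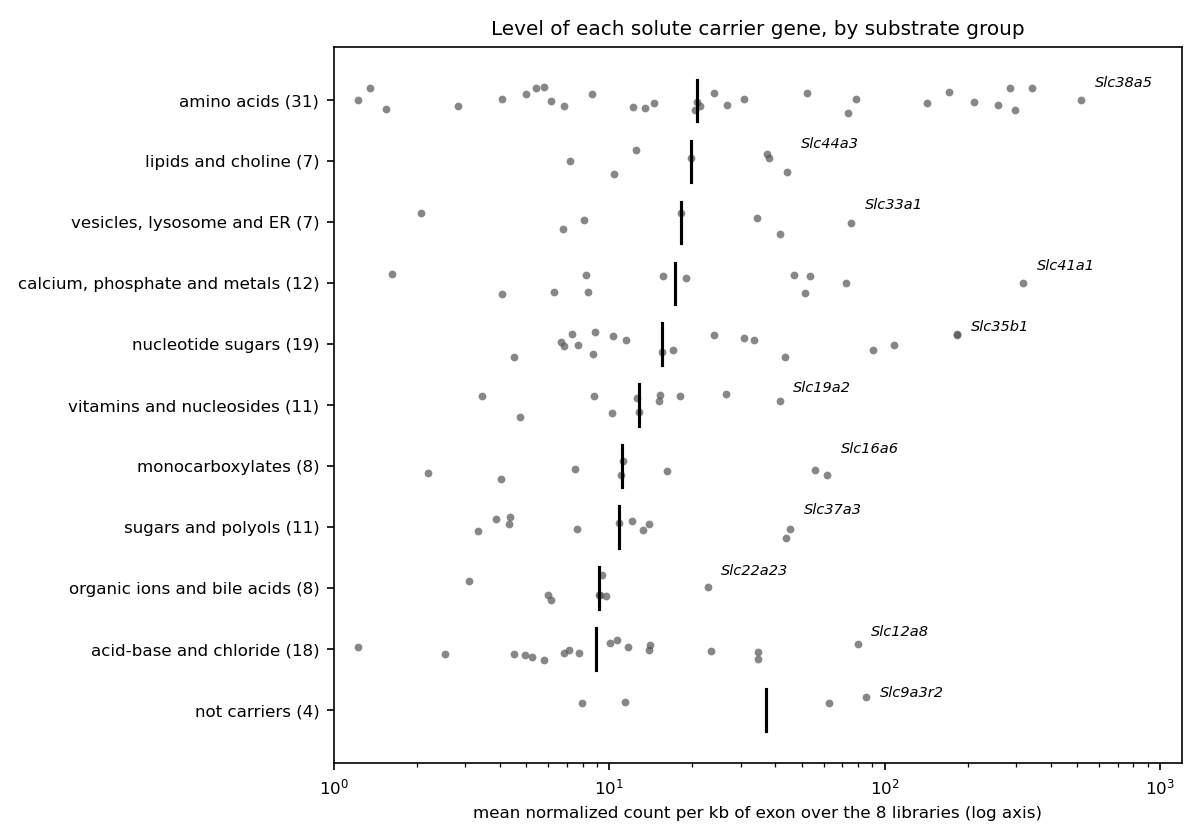
Level of each of the 136 genes by substrate group, as mean normalized count per kilobase of exon over the 8 libraries on a log axis; each point is a gene, the vertical line is the group's median, the number in brackets counts its genes and the name marks its highest gene. Slc38a5 stands highest at 517 per kilobase, and the amino acid group has both the highest median (20.7) of the carrier groups and the widest span.

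Slc38a5, a carrier of glutamine, asparagine, histidine and serine, stood at 465 ± 99.8 per kilobase in DC and 569 ± 85.5 in WT pancreas (SD, n = 4 each, as throughout). Slc3a2 encodes the heavy chain that brings several light chains of the Slc7 family to the membrane, and stood at 335 ± 17.2 per kilobase in DC and 351 ± 36.5 in WT. Its light chain partners Slc7a8 and Slc7a5, which exchange large neutral amino acids, came close to it. Slc7a8 had 307 ± 29.4 per kilobase in DC and 286 ± 52.3 in WT, and Slc7a5 had 265.5 ± 37.1 in DC and 251 ± 65.1 in WT. Within a library the level of Slc7a5 was 0.575 to 0.912 of that of Slc3a2, and that of Slc7a8 was 0.732 to 0.989 of it. The light chain of cystine uptake, Slc7a11, was far below, at 0.0236 to 0.0596 of Slc3a2. This depends on annotated exon length, 13922 bases for Slc7a11 against 3529 for Slc3a2. By normalized count their means were 187 and 1212.

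Members of the glutamine and glycine carrier families were also among the 10 highest, with Slc38a10 above Slc7a5. Slc38a10, a little characterised member of the glutamine carrier family, had 284 ± 36.4 per kilobase in DC and 285 ± 21.4 in WT. The glutamine carrier Slc38a3 had 210.4 ± 41.5 in DC and 213 ± 32.04 in WT, and the glycine carrier Slc6a9 had 166 ± 16.3 in DC and 178 ± 27.4 in WT. Of the exons of Slc6a9, 27.8% overlap exons of Ccdc24 on the opposite strand, and no source used here says whether the counting used strand. Slc38a1, a glutamine carrier of the same family as Slc38a5, was near the bottom of the set, at 2.16 ± 0.494 per kilobase in DC and 0.922 ± 0.333 in WT.

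Outside the amino acid families the highest level was that of Slc41a1, a magnesium carrier, with 322 ± 55.7 per kilobase in DC and 314 ± 21.2 in WT. Next came carriers of the secretory pathway. Slc35b1, which exchanges ATP and ADP across the endoplasmic reticulum membrane, had 180 ± 16.1 per kilobase in DC and 186 ± 9.15 in WT, and the Golgi family member Slc35c2 had 184 ± 25.4 in DC and 181 ± 21.4 in WT. Slc33a1, which brings acetyl-CoA into the endoplasmic reticulum, had 71.4 ± 12.2 in DC and 79.8 ± 8.21 in WT, with 32.02% of its exons overlapped by an antisense gene.

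Acid-base and chloride carriers were led by Slc12a8, a member of the chloride cotransporter family, with 80.7 ± 19.4 per kilobase in DC and 78.7 ± 8.04 in WT. The chloride and bicarbonate exchanger Slc4a2 had 34.3 ± 2.82 in DC and 35.1 ± 5.32 in WT. The sodium bicarbonate cotransporter gene Slc4a4, known from duct cells, was detected at a mean of 13.3 normalized counts, and Slc4a2 exceeded it per kilobase in every library, Slc4a4 reaching 0.0233 to 0.0556 of Slc4a2. Among calcium, phosphate and metal carriers the copper carrier gene Slc31a2 stood second to Slc41a1, with 73.0 ± 8.93 per kilobase in DC and 71.4 ± 2.48 in WT.

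Among the sugar carriers Slc37a3 and Slc50a1 led, with 45.0 ± 1.41 and 40.6 ± 4.14 per kilobase in DC, against 45.7 ± 4.46 and 46.8 ± 10.1 in WT. Slc2a1, the widely expressed glucose transporter gene, averaged 13.2 per kilobase over all 8 libraries, and 64 of the 136 genes stood above it. Slc2a2, the main glucose transporter of mouse islets, is outside the set. Among carriers of monocarboxylates, Slc16a6 and Slc16a5 led, with 63.4 ± 10.6 and 54.9 ± 11.5 per kilobase in DC, against 60.1 ± 11.0 and 56.8 ± 7.93 in WT. The exons of Slc16a6 overlap those of Amz2 on the opposite strand over 21.5% of their length.

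The thiamine carrier gene Slc19a2 led the vitamin and nucleoside group, with 28.6 ± 10.5 per kilobase in DC and 54.4 ± 15.99 in WT, and Slc46a3 followed with 29.1 ± 10.8 in DC and 24.0 ± 3.95 in WT. Choline and fatty acid carriers were led by Slc44a3, with 45.7 ± 6.44 in DC and 42.8 ± 3.74 in WT, and Slc27a4, with 38.0 ± 4.20 in DC and 37.8 ± 5.23 in WT. The vesicular nucleotide carrier gene Slc17a9 had 41.7 ± 6.02 in DC and 41.4 ± 6.85 in WT. Organic ion carriers had the lowest leading gene of all groups, the orphan carrier Slc22a23, with 22.1 ± 5.18 in DC and 23.3 ± 1.52 in WT, followed by the lipocalin receptor gene Slc22a17, with 10.9 ± 3.29 in DC and 8.54 ± 4.18 in WT. The scaffold genes Slc9a3r2 and Slc9a3r1, whose proteins tether carriers to the cytoskeleton, had 93.3 ± 21.6 and 65.0 ± 10.9 in DC, against 78.0 ± 12.3 and 60.8 ± 10.04 in WT.

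No solute carrier gene passed the test between the genotypes. The comparison asks how expression in the pancreas differs between DC and WT mice, and it was run on all 10468 genes with a mean of at least 10. In limma's test on log2(normalized count + 1), with Benjamini-Hochberg adjustment over all these genes, 0 genes (0%) passed an adjusted p of 0.05, and each of the 136 members had an adjusted p of 0.9997. At an unadjusted p under 0.05 there were 8 members (5.88%), where 2.88% of all tested genes had one. Of these 8, 1 was higher in DC, where 1.32% of all tested genes were, and 7 were lower in DC, where 1.57% of all tested genes were. The 4 DC values and the 4 WT values did not overlap for 8 members (5.88%), where 1.87% of all tested genes did not overlap. By direction, 1 of these was higher in DC (all tested genes 0.831%) and 7 were lower (all tested genes 1.04%). Leaving out 1 library moved the lower count at p under 0.05 between 4 (without DC replicate 3) and 12 (without WT replicate 2). The shares of all tested genes in those runs are not given here, so these counts have no background. These counts describe a set chosen with earlier results of the data known and have no test.

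With equal library totals in place of the deposited scaling the split was 6 higher and 4 lower members at an unadjusted p under 0.05, or 4.41% and 2.94% of members, where 3.78% and 0.315% of all tested genes were higher and lower. The median log2 fold change of all tested genes moved to 0.11. Relative to that median 74 of the 136 members lay below, against 75 relative to the median of -0.01 under the deposited scaling. With TMM scaling, computed in edgeR from recovered whole reads, the split was 1 higher and 7 lower members, as under the deposited scaling. These were 0.735% and 5.15% of members, where 1.34% and 1.52% of all tested genes were higher and lower. Under the deposited scaling the median log2 fold change of the members was -0.02, with 75 below 0 and 61 above. In 124 of the 136 it was smaller than 0.5 in either direction. The 95% interval reached a median of 0.42 log2 units to each side, or 1.34-fold, and for 119 members it lay within a 2-fold change in both directions.

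**Figure D2:**
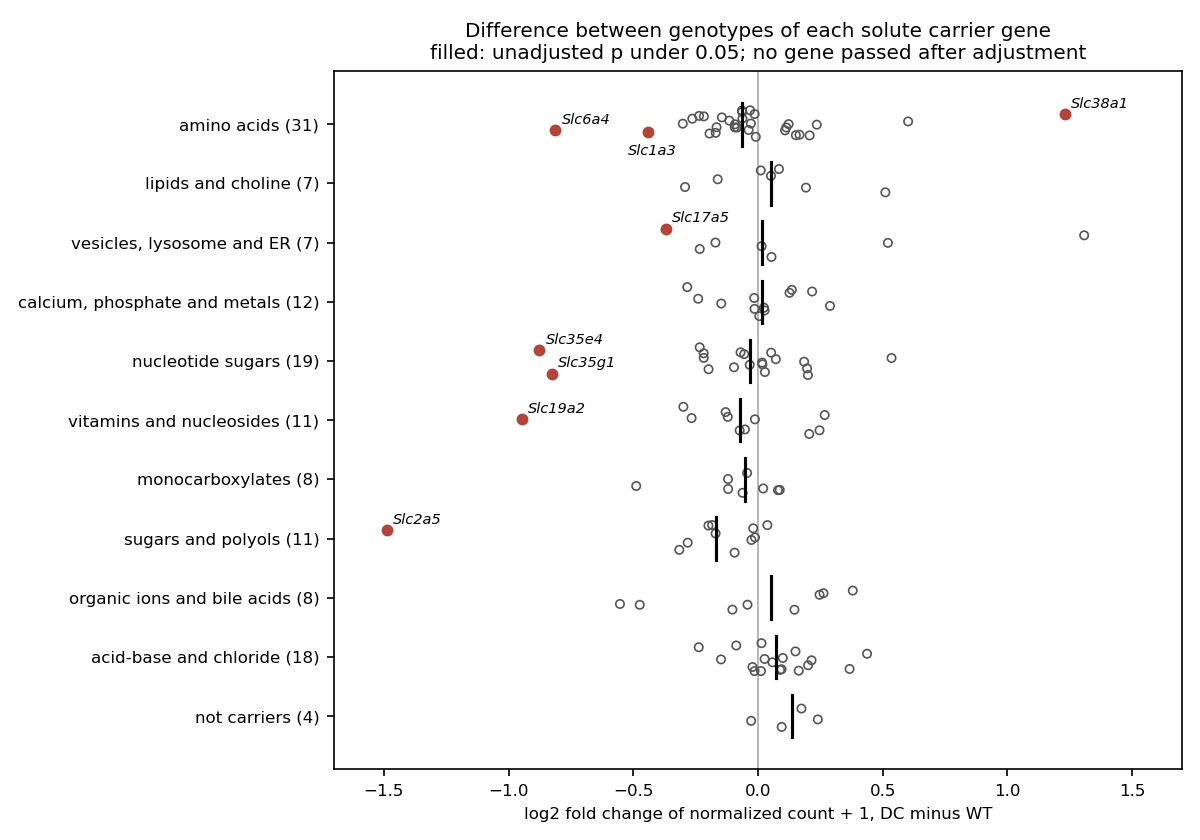
Log2 fold change of each of the 136 genes, DC minus WT, on log2(normalized count + 1), by substrate group; each point is a gene, filled points had an unadjusted p under 0.05 in limma, and the vertical line is the group's median. The filled points are 1 gene above 0, Slc38a1 at 1.23, and 7 below, the lowest being Slc2a5 at -1.49, while 124 of 136 genes lie within 0.5 of 0.

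Of the amino acid group, 9 members lay above 0 and 22 below, with a median log2 fold change of -0.06. Of all tested genes 51.9% lay below 0. At an unadjusted p under 0.05, 1 member was higher (3.23%, all tested genes 1.32%) and 2 were lower (6.45%, all tested genes 1.57%). Counts by substrate group have no test, and in a small group 1 gene makes a large share. With equal library totals 10 of the 31 lay below 0, while 21 lay below the median of all genes, against 22 under the deposited scaling. Slc38a1 had 24.8, 40.8, 43.7 and 39.9 normalized counts in DC replicates 1 to 4, against 15.9, 19.6, 7.79 and 20.4 in WT replicates 1 to 4. Every DC library stood above every WT library, on 8 to 49 reads per library. DC exceeded WT by 1.23 ± 0.31 (SE) on the log2 scale (95% interval 0.57 to 1.89), with an exact two-sided permutation p = 0.0286. Its gene lies on chromosome 15, 96571418 to 96642913 (GRCm38). Slc38a5 differed the other way, with 1042 ± 224 normalized counts in DC and 1274 ± 192 in WT, and the groups overlapped (log2 fold change -0.30 ± 0.15, SE; -0.18 with equal library totals).

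Slc1a3, a glutamate and aspartate carrier gene (chromosome 15, 8634124 to 8710764), had 92.9, 98.3, 63.5 and 99.7 normalized counts in DC libraries, against 122.5, 112, 120 and 120 in WT libraries. The WT libraries lay close together and all above the DC libraries, of which replicate 3 was lowest. Its log2 fold change was -0.44 ± 0.16 (SE; exact two-sided permutation p = 0.0286), and -0.29 without DC replicate 3. Without that library or with equal library totals its unadjusted limma p was no longer under 0.05. The serotonin carrier gene Slc6a4 (chromosome 11, 76998603 to 77032340), which belongs to a family of amino acid and monoamine carriers, had 15.5, 19.2, 18.7 and 34.6 in DC libraries, against 35.2, 29.998, 29.2 and 64.6 in WT libraries. Here DC replicate 4 lay within the WT range, and the log2 fold change was -0.81 ± 0.30 (SE; exact two-sided permutation p = 0.0857).

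The sugar and polyol group had 10 of 11 members below 0, where 51.9% of all tested genes were, with a median log2 fold change of -0.17. It had 1 lower member at an unadjusted p under 0.05 (9.09%, all tested genes 1.57%). With equal library totals 6 of the 11 were below 0, and 10 of the 11 lay below the median of all genes under either scaling. That member was Slc2a5, the fructose carrier gene (chromosome 4, 150119283 to 150144169). It had 5.16, 4.998, 12.5 and 4.20 normalized counts in DC libraries, against 22.9, 27.4, 14.6 and 14.2 in WT libraries. All DC libraries lay below all WT libraries, DC replicate 3 being nearest, and the values rest on 4 to 26 reads per library. On the log2 scale the difference was -1.49 ± 0.40 (SE; interval -2.35 to -0.63), with an exact two-sided permutation p = 0.0286. Slc37a3, the sugar carrier gene with the highest level, had 243.5 ± 7.65 normalized counts in DC and 247.5 ± 24.1 in WT.

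Vitamin and nucleoside carriers had 3 members above 0 and 8 below, with 1 lower at an unadjusted p under 0.05 (9.09%, all tested genes 1.57%). Under equal totals 1 was higher, Slc19a1 (9.09%, all tested genes 3.78%), and 1 lower (9.09%, all tested genes 0.315%). Slc19a2 (chromosome 1, 164249046 to 164265385) had 163.1, 91.6, 116 and 69.3 normalized counts in DC libraries, against 195, 149.99, 295 and 195 in WT libraries. The genotypes overlapped, since DC replicate 1 stood above WT replicate 2. DC minus WT came to -0.95 ± 0.24 (SE; interval -1.45 to -0.44) on the log2 scale, with an exact two-sided permutation p = 0.0571. The same 4 libraries that were highest in Slc19a2 were also those high in Ctrc, the chymotrypsin C gene that stood at 2 separate levels, a relation picked after the values were seen. Ctrc had 57356 normalized counts in DC replicate 1 and 2723 to 4297 in the other DC libraries, and 68282, 73618 and 76266 in WT replicates 1, 3 and 4 and 4065 in WT replicate 2. Its part in the Slc19a2 difference was not tested. The reduced folate carrier gene Slc19a1, of the same family, had 65.1 ± 9.46 in DC and 53.8 ± 6.70 in WT (log2 fold change 0.27 ± 0.17, SE).

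Among the 19 nucleotide sugar carriers and their relatives, 9 lay above 0 and 10 below. At an unadjusted p under 0.05, 2 were lower (10.5%, all tested genes 1.57%), or 1 under equal totals (5.26%, all tested genes 0.315%). Slc35g1, reported in human cells as a partner of the calcium sensor STIM1 (chromosome 19, 38395980 to 38405610), had 64.0, 77.5, 35.4 and 53.5 normalized counts in DC libraries, against 83.7, 95.2, 93.5 and 129 in WT libraries. Every DC library was below every WT library, with a log2 difference of -0.83 ± 0.22 (SE; interval -1.30 to -0.36) and an exact two-sided permutation p = 0.0286. The orphan gene Slc35e4 (chromosome 11, 3907021 to 3914664) had 6.19, 19.2, 8.33 and 6.30 in DC libraries, against 12.3, 22.2, 20.4 and 15.9 in WT libraries, so DC replicate 2 lay among the WT values (log2 fold change -0.88 ± 0.39, SE; exact two-sided permutation p = 0.0857). Slc35b3, which carries the sulfate donor PAPS into the Golgi, had 49.3 ± 9.41 in DC and 35.9 ± 13.6 in WT, with WT replicate 2 at 15.7.

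In the group of vesicle, lysosome, peptide and endoplasmic reticulum carriers 4 members lay above 0 and 3 below. At an unadjusted p under 0.05, 1 was lower (14.3%, all tested genes 1.57%). Under equal totals this was 1 higher, Slc15a2 (14.3%, all tested genes 3.78%), and 0 lower. Slc17a5, the gene of the lysosomal sialic acid exporter sialin (chromosome 9, 78536488 to 78588041), had 92.9, 140, 104 and 101 normalized counts in DC libraries, against 129, 145, 149.96 and 137 in WT libraries. DC replicate 2 lay within the WT range, and the log2 fold change was -0.37 ± 0.15 (SE; exact two-sided permutation p = 0.0857). The peptide carrier gene Slc15a2 (chromosome 16, 36750177 to 36784962) had 39.2, 52.5, 66.7 and 91.3 in DC libraries, against 63.4, 20.9, 2.92 and 63.7 in WT libraries. The genotypes overlapped, and WT replicates 2 and 3 stood below all other libraries. Its log2 fold change was 1.31 ± 0.65 (SE; exact two-sided permutation p = 0.257), 0.43 without WT replicate 3, and -0.09 without both of those WT replicates.

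**Figure D3:**
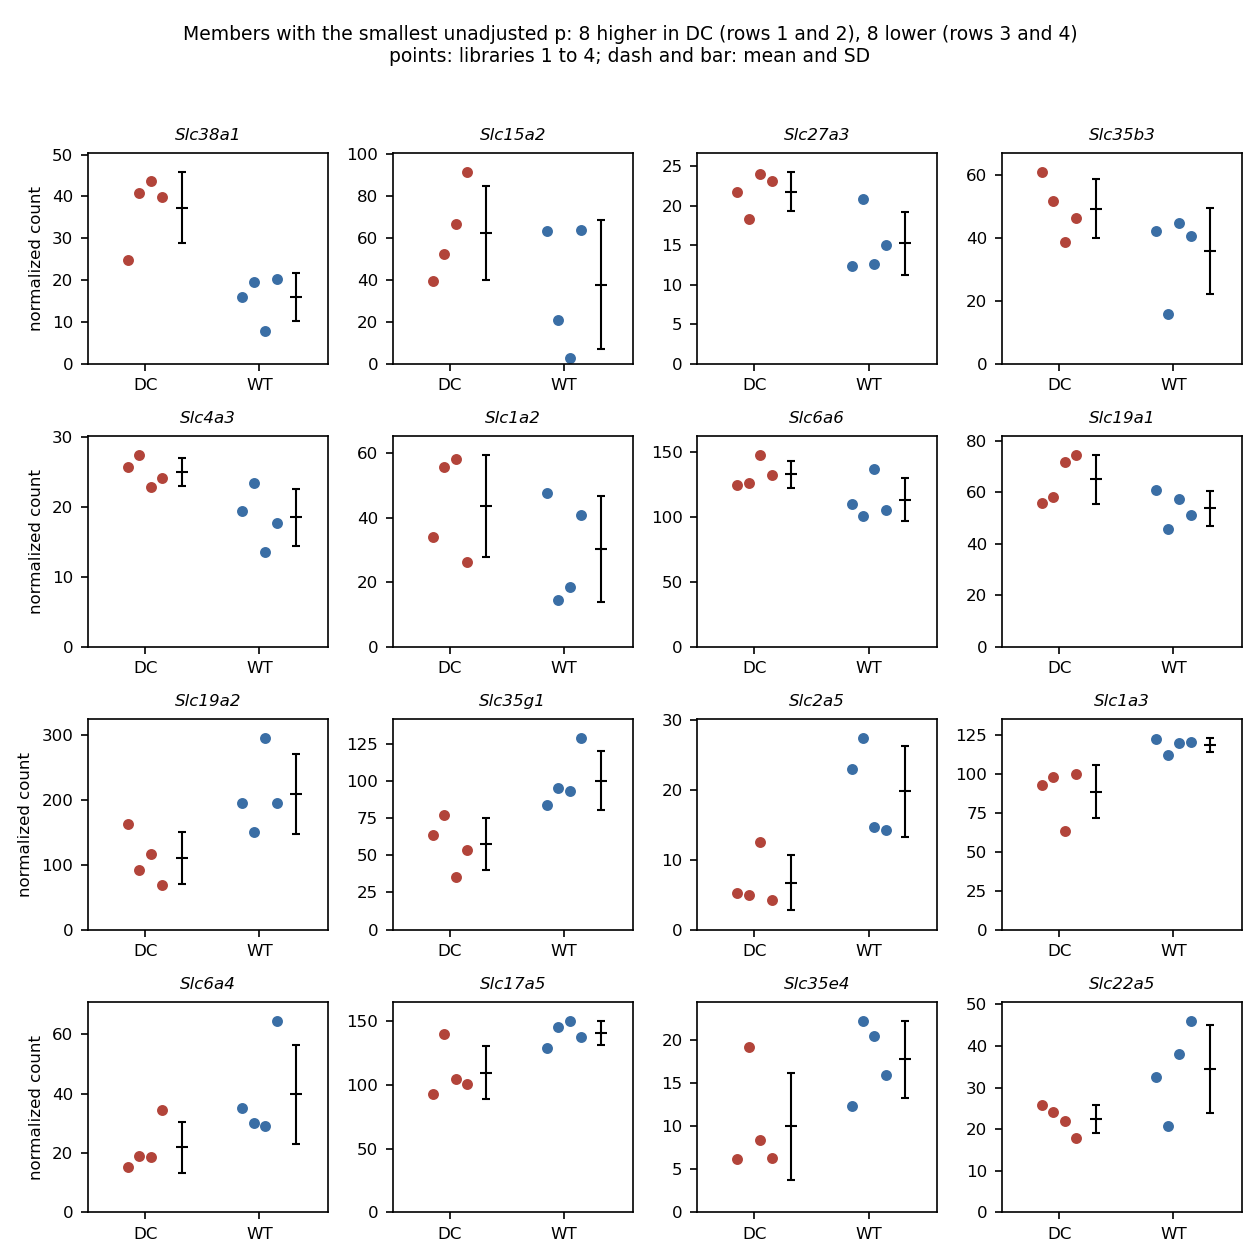
Normalized count of the 8 members with the smallest unadjusted p in each direction, DC left and WT right in each panel; points are single libraries, and the dash and bar give mean and SD over n = 4. In Slc38a1 all DC libraries lie above all WT libraries, in Slc35g1, Slc2a5 and Slc1a3 all lie below, and in the other 12 panels the genotypes overlap.

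Slc38a1, Slc19a2, Slc35g1 and Slc2a5 kept an unadjusted limma p under 0.05 in every alternative run, while Slc1a3, Slc6a4, Slc17a5 and Slc35e4 lost it in at least 1. Slc6a4 lost it without DC replicate 1 or WT replicate 4, and Slc17a5 without DC replicate 1, 3 or 4, without WT replicate 3 or with equal library totals. Slc35e4 lost it in most, among them edgeR and DESeq2. Lack of overlap in Slc38a1, Slc35g1, Slc2a5 and Slc1a3 follows in part from their choice by a small p. The exact permutation test runs over 70 relabellings of the libraries, so p = 0.0286, reached by these 4 genes, is the smallest it can give. Slc19a2 overlapped between the genotypes. The other members without overlap, named after their values were seen, were Slc35f5, Slc35a2, Slc16a13 and Slc46a1, all lower in DC. Their log2 fold changes were -0.22, -0.23, -0.49 and -0.27, and with equal library totals -0.10, -0.11, -0.37 and -0.15. Without DC replicate 3 that of Slc46a1 was -0.16. Slc35a2 carries UDP-galactose into the Golgi, and Slc46a1 is the proton-coupled folate carrier gene.

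The remaining members named for a small p are given as values. The taurine carrier gene Slc6a6 had 133 ± 10.5 normalized counts in DC and 113 ± 16.5 in WT, and the glutamate carrier gene Slc1a2 had 43.6 ± 15.9 in DC and 30.3 ± 16.3 in WT. Slc27a3, of the fatty acid carrier family, had 21.8 ± 2.48 in DC and 15.2 ± 3.95 in WT. The anion exchanger gene Slc4a3 had 25.1 ± 1.99 in DC and 18.6 ± 4.08 in WT, and Slc22a5, the carnitine carrier gene, had 22.4 ± 3.45 in DC and 34.4 ± 10.6 in WT. Each of these 5 had an unadjusted limma p between 0.0515 and 0.117.

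Groups without a member at an unadjusted p under 0.05 were the acid-base and chloride carriers (13 above 0 and 5 below), the calcium, phosphate and metal carriers (7 and 5), the lipid and choline carriers (5 and 2), the monocarboxylate carriers (3 and 5) and the organic ion carriers (4 and 4). With equal library totals these 5 groups had the same numbers of members below the median of all genes, though fewer or as many below 0. The lipid and choline carriers then had 1 member higher at an unadjusted p under 0.05, Slc27a3 (14.3%, all tested genes 3.78%). The most abundant genes of the 5 groups were close between genotypes. Slc12a8 had 359 ± 86.3 normalized counts in DC and 349.8 ± 35.7 in WT, and its interval ran from -0.31 to 0.34 on the log2 scale. Slc41a1 had 1584 ± 274 in DC and 1540 ± 104 in WT, with an interval of -0.23 to 0.29.

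Carriers known as ATF4 targets were described beside other genes of the amino acid response. Of the 9 carriers 2 lay above 0 and 7 below, where 51.9% of all tested genes lay below 0. Their median log2 fold change was -0.08, and none had an unadjusted limma p under 0.05. With equal library totals Slc38a2, Slc3a2, Slc6a9, Slc7a1 and Slc7a3 turned from below 0 to above it. Slc7a11 had 174 ± 66.6 normalized counts in DC and 200.2 ± 34.2 in WT (log2 fold change -0.26 ± 0.22, SE). This ranged from -0.49 without DC replicate 1 to -0.09 without DC replicate 3, with -0.15 without DC replicate 4, -0.16 without WT replicate 4 and -0.14 with equal library totals. DC libraries spanned 116 to 263 and WT libraries 172 to 246. Slc1a4, the neutral amino acid carrier gene printed with it, had 218 ± 34.9 in DC and 193 ± 26.1 in WT, with an interval of -0.14 to 0.47 on the log2 scale.

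The other 7 carriers are given with their 95% intervals on the log2 scale. Slc3a2 had 1184 ± 60.8 normalized counts in DC and 1240 ± 129 in WT, with an interval of -0.29 to 0.16, and Slc38a2, a glutamine carrier gene, had 1224 ± 98.2 in DC and 1298 ± 117 in WT, with -0.31 to 0.14. Slc7a1, for arginine and lysine, had 902 ± 43.7 in DC and 914 ± 136 in WT, with -0.26 to 0.24, and Slc7a5 had 985 ± 138 in DC and 931 ± 241 in WT, with -0.25 to 0.46. Slc6a9 had 852 ± 83.7 in DC and 914 ± 141 in WT, with -0.35 to 0.17. Slc1a5 had 285 ± 69.3 in DC and 330.2 ± 113 in WT, with -0.65 to 0.31, and Slc7a3 had 88.1 ± 23.1 in DC and 93.5 ± 19.8 in WT, with -0.53 to 0.34.

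Of 24 tested response genes outside the carriers 11 lay above 0 and 13 below. An unadjusted limma p under 0.05 was found for 1, where 2.88% of all tested genes had one. This gene was Ddit4, an inhibitor of mTORC1 signalling. Ddit4 had 82.6, 88.3, 95.8 and 86.1 in DC libraries, against 103, 129, 266 and 93.0 in WT libraries, where WT replicate 3 stood apart. The log2 fold change was -0.61 ± 0.25 (SE), and -0.28 without WT replicate 3. Without that library, without DC replicate 1 or 4, or with equal library totals its unadjusted limma p was no longer under 0.05. Chac1, which degrades glutathione, had 203 ± 62.8 in DC and 274 ± 73.2 in WT. Asns, the asparagine synthetase gene, had 2230 ± 357 in DC and 2237 ± 171 in WT, a pair chosen after its values were seen.

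Pumps, channels and regulators on which carriers depend gave 27 tested genes, 12 above 0 and 15 below. Of the 27, 1 had an unadjusted limma p under 0.05, where 2.88% of all tested genes had one. This gene was Sgk1, a kinase that regulates many carriers and channels. It had 499.6, 347, 299 and 227 normalized counts in DC libraries, against 483, 441, 618 and 390.4 in WT libraries, and DC replicate 1 lay within the WT range. The log2 fold change was -0.53 ± 0.20 (SE), and -0.35 without DC replicate 4. Without DC replicate 4, without WT replicate 3 or with equal library totals its unadjusted limma p was no longer under 0.05. The water channel gene Aqp1 had 124 ± 28.0 in DC and 149 ± 18.8 in WT, with overlap between genotypes.

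Solute carrier genes varied between animals about as much as other genes in the overall median. The SD of log2 values within genotype, pooled over both genotypes, had a median of 0.28 over the members and 0.27 over all tested genes. In 10 equal bins by mean, the members' median was higher in bins 1, 4, 5, 6, 9 and 10 and lower in bins 2, 3, 7 and 8. It was 0.39 against 0.30 in bin 4, 0.26 against 0.18 in bin 9 and 0.36 against 0.42 in bin 2. In 86 of the 136 members the highest library was less than 2-fold above the lowest, and in 15 it was more than 3-fold above. The steadiest were Slc35a2 (SD 0.10), Slc35f5 (0.10), Slc37a3 (0.10) and Slc35b1 (0.10), of which the last ran from 363 to 447 normalized counts over all 8 libraries.

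The most variable member was Slc15a2, with an SD of 1.40 log2 units and a highest library 31.3-fold above the lowest. The others of the 6 most variable members with a mean of at least 50 were Slc19a2 (SD 0.46), the glutamine carrier gene Slc1a5 (0.45), the lysosomal carrier gene Slc46a3 (0.43), the lactate and pyruvate carrier gene Slc16a7 (0.42) and Slc7a11 (0.41). Slc1a5 was lowest in WT replicate 1, at 192 normalized counts, and highest in WT replicate 2, at 447, while its DC libraries lay between 235 and 384. Slc16a7 had 249, 242, 120 and 157 in DC libraries, against 238, 162, 151 and 220.5 in WT libraries, so both genotypes held high and low animals. Slc46a3 had 43.4, 54.1, 91.6 and 96.6 in DC libraries, against 58.2, 65.2, 45.8 and 67.3 in WT libraries.

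**Figure D4:**
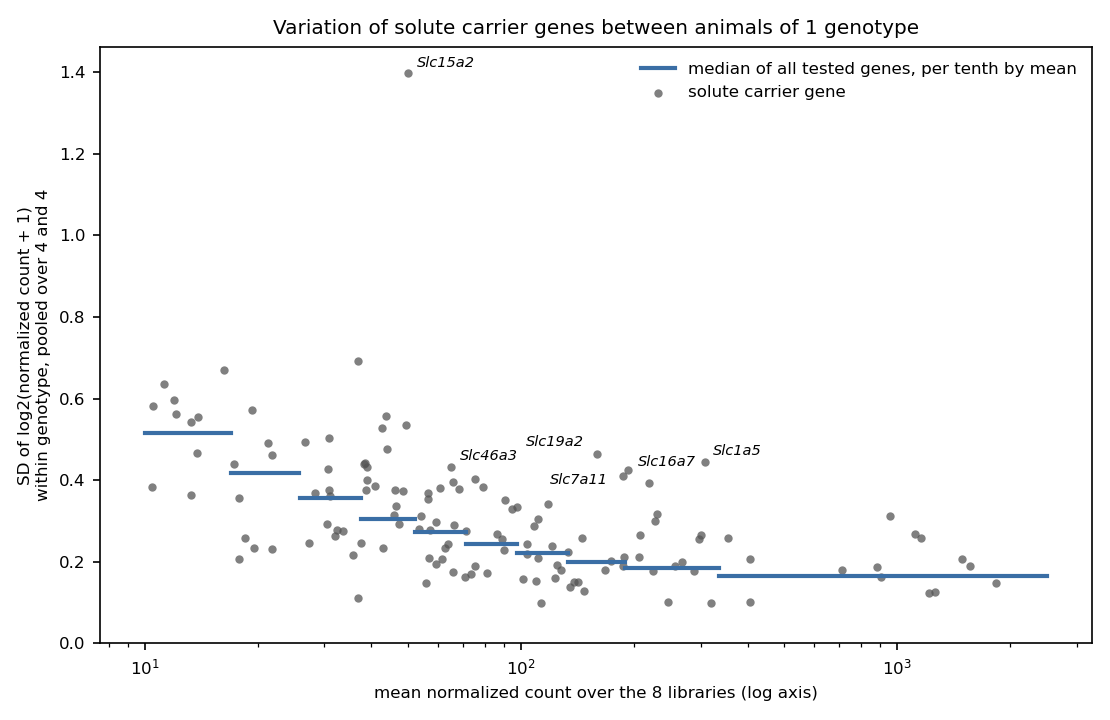
SD of log2(normalized count + 1) within genotype, pooled over 4 DC and 4 WT libraries, against the mean normalized count on a log axis; points are the 136 solute carrier genes and bars the median of all tested genes in each of 10 equal bins by mean, the last bar being drawn only as far as the members reach. Slc15a2 stands alone at 1.40, and most other members lie near the bars.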

How the data were processed

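Strand-specific total RNA libraries were made from frozen pancreas, per the labels' protocols, giving 8 libraries. The deposited values are a signal: read counts per gene that the authors divided by a size factor of each library. This is read from the values, which are whole multiples of 1 step per library for 100% of values within a tolerance of 0.001. STAR 2.6.0b, DESeq2 (no version) and the build GRCm38 are named in the submitters' processing notes. No source used here names the counter or the gene filter. Column names were matched to sample titles, and replicates are numbered in accession order, which pairs nothing. In the deposited column order DC replicate 1 came first, then the WT libraries, then the other DC libraries. No label says what this order reflects.

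Genes with a mean of at least 10 (10468) were tested with limma 3.58.1 (R 4.3.3; trend, genotype as the only term, two-sided, Benjamini-Hochberg) on log2(normalized count + 1), which understates changes of low genes. The test was also run on simulated counts, with changes planted only in genes with a mean of at least 100. Of the members 82 had a lower mean, and the outcome is not given here. edgeR 4.0.16 and DESeq2 1.42.0 were run on recovered whole reads as alternatives. Exon lengths, overlaps and coordinates are from GENCODE M21 (GRCm38), in which all 136 members matched. Counting error is one limit, with 3 to 2033 reads behind a member's value in a library.

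Members and lists were chosen with earlier results of these data known. Named are the 8 members with the smallest p in each direction, the 10 highest per kilobase, the 2 highest of each group, the 6 most variable with a mean of at least 50, ATF4 target carriers, 2 genes of each partner list, and Daxx. Any other gene was picked with its values in view, or is set beside a named gene.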

Additional observations from a re-analysis of the deposited data

Results flagged for a closer look

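For the 54 named genes each genotype's 4 libraries were checked with Dixon's test for a single distant value, and 7 of 108 groups had one, where chance gives about 5.4 (1 in 20). Low outliers were Slc44a3 in DC replicate 3, at 182.3 normalized counts against 243.6 to 249.1 in the other DC libraries, and Slc35b3 in WT replicate 2, at 15.65 against 40.73 to 44.79. High outliers in DC were Slc2a5 in DC replicate 3, at 12.5 against 4.2 to 5.161, and Slc35e4 in DC replicate 2, at 19.16 against 6.194 to 8.332. High outliers in WT were Slc35c2 in WT replicate 2, at 833.4 against 651.2 to 679.7, Slc33a1 in WT replicate 4, at 326.7 against 267.9 to 268.8, and Slc6a4 in WT replicate 4, at 64.63 against 29.21 to 35.25.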

How the results depend on the processing

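No solute carrier gene was called at an adjusted p under 0.05 in any alternative run, nor at 0.10. Over all genes limma called 0 and edgeR 0, while DESeq2, the Y-linked covariate, robust moderation and equal library totals each called 1, as did limma without DC replicate 2 (range over left-out libraries 0 to 1). Counts of members at an unadjusted p under 0.05 were 1 higher and 7 lower in the deposited scaling and also with TMM scaling. They were 6 and 4 with equal library totals, where the median log2 fold change of members was 0.10, 40 lay below 0, and 9 higher and 1 lower did not overlap, where 3.12% and 0.134% of all tested genes were higher and lower without overlap. They were 2 higher with array weights, and 0 higher and 4 lower with a minimum mean of 50, where 49 lay below 0 and fewer genes are tested. Leaving out a library gave 1 to 3 higher and 4 to 12 lower members: 3 higher without DC replicate 2 or WT replicates 1, 2 or 3, 2 higher without DC or WT replicate 4, 4 lower without DC replicate 3 and 12 lower without WT replicate 2, and 1 to 5 higher and 8 to 11 lower members without overlap (5 without DC replicate 3, 11 without DC replicate 4). Shares of all tested genes are not given for the runs with array weights, a minimum mean of 50 or a library left out. With fewer libraries a lack of overlap also arises more easily, so those counts cannot be set beside the main ones. The cause was not tested. Of 58 named genes recomputed, 36 kept the sign of their log2 fold change under the listed alternatives. The other 22 had log2 fold changes of at most 0.109 in size under the deposited scaling. With equal library totals the sign turned in Slc16a5 (0.0603), Slc16a7 (0.0787), Slc22a23 (0.0192), Slc35b1 (0.0672), Slc37a3 (0.103), Slc38a10 (0.109), Slc38a2 (0.0382), Slc38a3 (0.0941), Slc3a2 (0.0603), Slc4a2 (0.1), Slc6a9 (0.0304), Slc7a1 (0.114) and Slc7a3 (0.0283). It turned with array weights in Slc12a8 (-0.0315) and with edgeR in Slc16a7 (0.000646) and Slc38a10 (0.000494). Leaving out a library gave ranges across 0 in Slc12a8 (-0.132 to 0.131), Slc16a5 (-0.161 to 0.063), Slc16a6 (-0.0573 to 0.166), Slc16a7 (-0.189 to 0.161), Slc17a9 (-0.08 to 0.109), Slc22a23 (-0.213 to 0.0485), Slc27a4 (-0.0568 to 0.0884), Slc31a2 (-0.0438 to 0.0916), Slc35c2 (-0.0658 to 0.0965), Slc37a3 (-0.0616 to 0.0452), Slc38a10 (-0.092 to 0.0351), Slc38a3 (-0.0975 to 0.127), Slc41a1 (-0.0728 to 0.131), Slc4a2 (-0.0979 to 0.0411), Slc7a1 (-0.0905 to 0.0581), Slc7a3 (-0.255 to 0.0319), Slc7a5 (-0.0631 to 0.252) and Slc9a3r1 (-0.0031 to 0.192). Slc15a2 reversed to -0.093 without WT replicates 2 and 3 together, chosen after seeing the data. On 1 strand the motif was in the promoters of 3.92% of members and 9.09% of amino acid members, against 2.41% of all promoters. No paired analysis was possible because the labels give no replicate numbers shared between genotypes.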
